A study of Mus musculus with 6 samples.

Results

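Transcript levels of 10 genes for elastic fibre and microfibril proteins were compared in mouse ADSCs between controls with a scrambled hairpin and cells with an Ifit1 hairpin. The genes are Eln, Fbn1, Fbn2, Fbln1, Fbln2, Fbln5, Efemp1, Efemp2, Emilin1 and Mfap4. They were chosen by name, with earlier results of these data known, from a table of 19877 genes, and all 10 were found in it. ADSC is the labels' abbreviation, commonly used for adipose-derived stem cells. Each group holds 3 libraries, and 3 numbered batches hold 1 library of each group. The cells of both groups are labelled WT, and the groups differ in the labelled treatment, Scrambled or IFIT1 knockdown. The sources used here do not state the mouse strain and age, how the hairpin was delivered, its target position, or whether each library had a culture or clone of its own. The p-values therefore measure the spread between these libraries, which may be technical. The series' title concerns treatment of myocardial infarction with such cells.

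Elastic fibres give stretch and recoil to arteries, lung, skin and other tissues. An elastic fibre has a core of crosslinked elastin on a scaffold of microfibrils, whose backbone is built from fibrillins. Fibulins and other small glycoproteins bring tropoelastin, the soluble precursor, to the microfibrils and to the lysyl oxidases that crosslink it. Microfibrils also occur without elastin, and they bind latent TGF-beta through the latent TGF-beta binding proteins. Stromal cells and fibroblasts make fibrillins and fibulins, and smooth muscle cells are a known source of elastin.

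The depth of a library was between 32.2 and 40.6 M fragments, read from the steps in the FPKM values (fragments per kilobase of gene, scaled to library depth). Ifit1 itself was lower in the knockdown, with a mean of 4.54 ± 0.685 FPKM in scrambled and 1.58 ± 0.151 FPKM in knockdown libraries (SD, n = 3 each). Of 9 listed stromal markers, 8 had a mean of at least 1 FPKM, and Nt5e did not exceed 0.351 FPKM in any library. Of these 8, Thy1, Eng, Ly6a, Pdgfra and Pdgfrb fell and Cd44, Itgb1 and Alcam rose. The call of Itgb1 was lost under 9 of 16 alternative analyses. The summed level of the 9 markers, mostly Itgb1, was 501.6 to 504.9 FPKM in scrambled and 502.6 to 539.1 FPKM in knockdown libraries. The endothelial markers Pecam1, Cdh5, Kdr, Tek and Vwf were each below 0.1 FPKM everywhere, as was Ptprc, which marks leukocytes. Of 7 smooth muscle markers, 5 had a mean of at least 1 FPKM. The 7, mostly Acta2 and Tagln, summed to 702.5 to 878.7 FPKM in scrambled and 860.0 to 1082 FPKM in knockdown libraries. Tagln and Smtn rose (limma adjusted p = 0.00366 and 0.00700). Acta2 (0.0781), Cnn1 (0.124) and Lmod1 (0.126) did not pass the test. Myh11, the defining myosin of mature smooth muscle, was below 0.1 FPKM everywhere. The 6 markers of epithelium and mesothelium, mostly Msln, summed to 19.3 to 27.5 FPKM in scrambled and 13.7 to 18.8 FPKM in knockdown libraries. Listed macrophage markers reached a mean of 1 FPKM for Cd68 alone, and adipocyte and chondrocyte markers for none. The part of these marker differences in the results below was not tested. In bulk RNA, fewer cells of a type and less RNA per cell cannot be told apart.

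Promoter windows of 7 of the 10 genes were found in the RefSeq table of GRCm38.p6, in 11 windows. The 250 bases before the start of Fbln1 (chr15:85205699-85205948, plus strand), of Fbln5 (chr12:101819120-101819369, minus strand) and of Efemp2 (chr19:5473696-5473945, plus strand) are printed to set side by side 2 fibulins that fell and 1 that did not pass the test. Capitals mark matches to the motifs searched. They are shown 5′ to 3′ on the strand of the gene.
Fbln1: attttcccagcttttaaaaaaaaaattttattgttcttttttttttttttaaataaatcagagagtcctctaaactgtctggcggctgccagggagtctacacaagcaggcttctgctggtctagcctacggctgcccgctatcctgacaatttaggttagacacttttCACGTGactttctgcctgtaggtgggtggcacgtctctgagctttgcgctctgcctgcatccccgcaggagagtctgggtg
Fbln5: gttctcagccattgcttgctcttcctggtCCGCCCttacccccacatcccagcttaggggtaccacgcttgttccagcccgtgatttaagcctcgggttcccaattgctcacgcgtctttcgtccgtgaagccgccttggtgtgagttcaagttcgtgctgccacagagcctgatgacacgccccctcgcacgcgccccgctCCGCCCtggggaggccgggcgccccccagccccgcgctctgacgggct
Efemp2: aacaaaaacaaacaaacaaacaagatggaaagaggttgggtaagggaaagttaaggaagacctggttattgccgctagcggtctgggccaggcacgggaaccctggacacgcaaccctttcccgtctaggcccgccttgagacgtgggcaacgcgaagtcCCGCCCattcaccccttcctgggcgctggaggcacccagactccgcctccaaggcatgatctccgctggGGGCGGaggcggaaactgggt

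The motifs were searched on both strands, and no match of one motif overlapped a match of another. The GC box GGGCGG was present in 8 of the 11 windows, which belong to 6 genes, and in 32.7% of all 32851 windows of the same length. Both Fbln5 and Efemp2 show it above, and the printed Fbln1 window does not hold it. A second Fbln1 window, at 85205758 to 85206007, overlaps the printed one and holds the GC box as CCGCCC at position -11. Both Fbln1 windows hold the E-box CACGTG, found in 6.02% of all windows. A second Fbln5 window, further into the gene, holds TGATGCAA at position -124 from its start, a match to TGATGNAA, the core of the amino acid response element, which was in 3.45% of all windows. The Fbn1 window holds a match to the core of the interferon-stimulated response element (GAAA, any 2 bases, GAAA) at position -97, and 2.98% of all windows hold 1 or more. This window, at 125506439 to 125506688, lies inside the annotated gene, and all its 250 bases are in annotated exons. The same holds for the Emilin1 and Fbln2 windows. The AP-1 site TGANTCA was matched in Efemp1 alone among these genes and in 6.75% of all windows. The TATA box TATAAA (12.4% of all windows) and the SMAD-binding palindrome GTCTAGAC (0.167%) were in none of the 11. A match is a run of letters and not a shown binding site, and several windows of 1 gene overlap.

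Transcripts of both fibrillins, of Emilin1 and of 3 fibulins were lower in the knockdown, while elastin transcripts were all but absent from both groups. Of the 10 genes, 7 were abundant enough to test, and each of these 7 reached 1 FPKM in all 6 libraries. Fbn1, Fbn2, Fbln1, Fbln2, Fbln5 and Emilin1 fell (6 of 7), 0 rose, and Efemp2 did not pass the threshold (limma with Benjamini-Hochberg adjustment over 10311 genes, adjusted p under 0.05). Of all tested genes 51.0% passed, with 31.1% lower and 19.8% higher. Since the 10 genes were chosen with earlier results known, their counts beside these shares are a description only. The median log2 fold change was -0.49 over the 7 genes and -0.05 over all tested genes. For the same 6 genes the 3 knockdown libraries lay below the 3 scrambled libraries, as was the case for 37.3% of all tested genes. Separation in the other direction occurred for 0 of the 7 and for 23.8% of all tested genes. The split of all calls depended on the scaling between libraries. Of all called genes, 38.9% were higher with FPKM as deposited, 27.6% after rescaling to TPM, 56.7% after median centring and 52.4% after quantile normalization. The 6 genes fell under each of these.

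**Figure D1:**
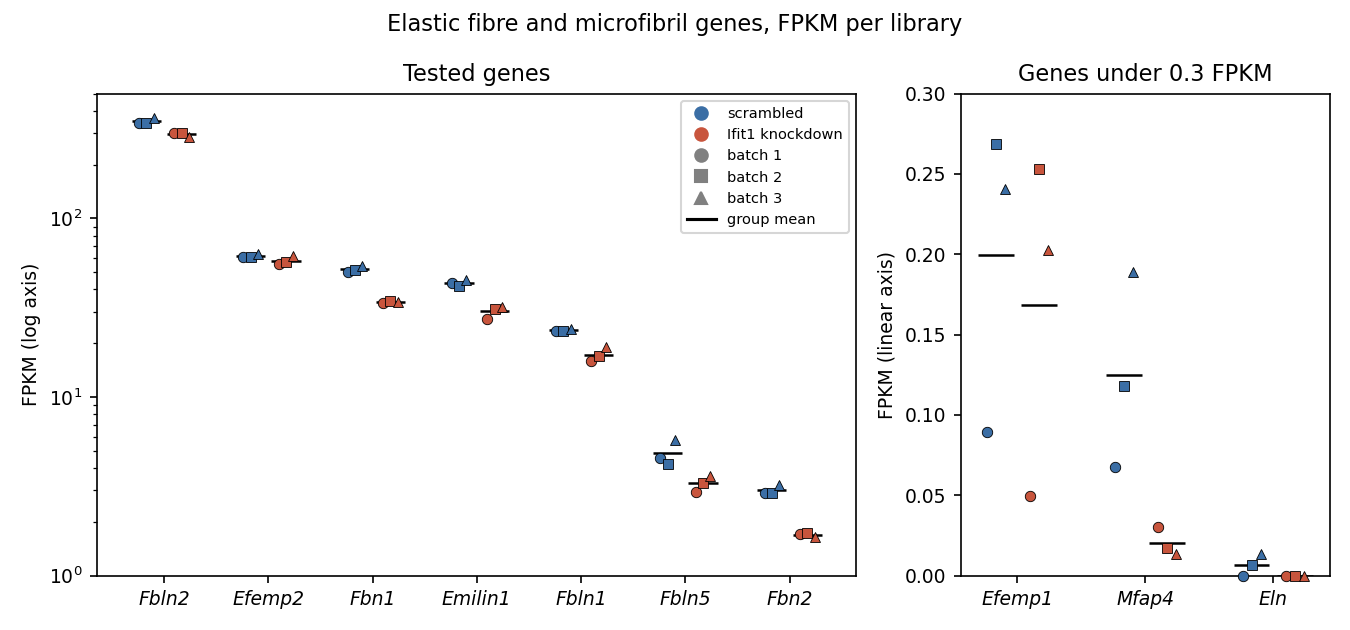
FPKM of the 10 genes in each library, on a log axis for the 7 tested genes (left) and on a linear axis for the 3 genes under 0.3 FPKM (right). Blue points are scrambled and red points knockdown libraries, marker shapes are batches and black lines are group means. Blue and red points do not overlap for 6 of the 7 tested genes, and Eln lies at or next to 0 in every library.

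The order of the levels was the same in both groups. It ran from Fbln2 through Efemp2, Fbn1, Emilin1, Fbln1, Fbln5, Fbn2, Efemp1 and Mfap4 down to Eln. Within a group, the ranges of neighbours in this order did not overlap, except for Efemp1 and Mfap4 in the scrambled libraries. Fbln2 alone made up 64.9% of the summed FPKM of the 10 genes in each scrambled library and between 65.4% and 68.6% in the knockdown libraries. By mean level it ranked 164 among all 19877 genes, ahead of Efemp2 at 1123 and Fbn1 at 1681.

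Eln encodes tropoelastin, the protein of the fibre core. It lies on chromosome 5, positions 134702593 to 134747323 of GRCm38, minus strand, and its longest coding transcript in GENCODE M21 has 37 exons. Eln was listed at 0, 0.00673 and 0.0132 FPKM in scrambled libraries 1, 2 and 3, which corresponds to 0, 1 and 2 fragments. All 3 knockdown libraries listed it at 0. A count of 0 allows up to 3 fragments, which is between 0.0184 and 0.0232 FPKM for Eln in these libraries, for counting error only. Both groups were at or under that limit, so no fold change is given.

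Fbn1 and Fbn2 encode fibrillins, the large glycoproteins that polymerise into the microfibril backbone. Fbn1 lies on chromosome 2, positions 125300594 to 125507993, minus strand, and Fbn2 on chromosome 18, positions 58008623 to 58210487, minus strand. The longest coding transcript of each has 65 exons. Exons of Fbn1, Fbn2 and Eln overlap those of Gm9913, Gm26507 and Gm30003, in that order, on the opposite strand. The overlapping genes were not found under these names among the listed genes, so their share of the reads could not be checked. Fbn1 measured 49.9, 51.4 and 54.3 FPKM in scrambled libraries 1, 2 and 3. In knockdown libraries 1, 2 and 3 it measured 33.6, 34.7 and 33.9 FPKM. The knockdown values lay close together and all below the scrambled ones. The mean was 34.3% lower, and the log2 fold change was -0.60 ± 0.04 (standard error, limma adjusted p = 2.10e-05). Batch by batch, from 1 to 3, it was -0.56, -0.56 and -0.67.

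Fbn2 is the fibrillin most associated with development. Fbn2 measured 2.88, 2.91 and 3.21 FPKM in scrambled libraries 1, 2 and 3. It was 1.71, 1.74 and 1.64 FPKM in knockdown libraries 1, 2 and 3, again with no overlap. The mean was 43.5% lower, and the log2 fold change of -0.67 ± 0.07 was the most negative of the 7 tested genes (limma adjusted p = 0.000130). Only 3.65% of all tested genes had a lower log2 fold change than Fbn2, and 4.80% a lower one than Fbn1. The pseudocount of 0.5 understates the change of so low a gene, and the log2 fold change ran from -0.83 to -0.48 over the alternatives.

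Fbln1 and Fbln2 encode the larger fibulins. Fibulin-1 is found in elastic fibres and basement membranes, and fibulin-2 binds fibrillin and fibronectin. Fbln1 (chromosome 15, positions 85205949 to 85286535, plus strand, 17 exons) measured 23.5, 23.3 and 23.9 FPKM in scrambled libraries 1, 2 and 3. It measured 15.9, 16.9 and 19.0 FPKM in knockdown libraries 1, 2 and 3. Scrambled values were close together, knockdown values were more spread, and the groups did not overlap. The log2 fold change of Fbln1 was -0.44 ± 0.06 (limma adjusted p = 0.000421), and its values do not tell apart the splice forms of the gene.

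Fbln2 (chromosome 6, positions 91212455 to 91272540, plus strand, 18 exons) was the most abundant of the 10 genes. It measured 343.3, 342.1 and 363.2 FPKM in scrambled libraries 1, 2 and 3. In knockdown libraries 1, 2 and 3 it measured 299.0, 299.8 and 286.1 FPKM. The groups did not overlap, yet the mean was lower by only 15.6%, the smallest of the 6 falls. The fitted log2 difference was -0.24 ± 0.03 (limma adjusted p = 0.000424), and 20.5% of all tested genes had a lower value. Its batch differences were -0.20, -0.19 and -0.34 on the log2 scale.

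Fbln5, Efemp2 and Efemp1 encode the short fibulins 5, 4 and 3. Fibulin-5 binds tropoelastin and cell-surface integrins, and fibulin-4 is required for elastic fibres to form and assists lysyl oxidase. Fbln5 (chromosome 12, positions 101746565 to 101819055, minus strand, 11 exons) measured 4.55, 4.23 and 5.78 FPKM in scrambled libraries 1, 2 and 3. It measured 2.94, 3.32 and 3.63 FPKM in knockdown libraries 1, 2 and 3. Library 3 of the scrambled group stood highest, and the lowest scrambled value was still above the highest knockdown value. The log2 fold change of Fbln5 was -0.49 ± 0.11 (limma adjusted p = 0.00609), with the largest standard error of the 7 genes. Without scrambled library 3 it was -0.37 (adjusted p = 0.0139).

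Efemp2, the gene of fibulin-4 (chromosome 19, positions 5473954 to 5482517, plus strand, 11 exons), was the tested gene that did not pass. It measured 61.1, 60.7 and 63.4 FPKM in scrambled libraries 1, 2 and 3. It measured 55.5, 57.1 and 61.3 FPKM in knockdown libraries 1, 2 and 3. Knockdown library 3 lay inside the scrambled range and the other 2 lay below it. The fitted log2 difference was -0.09 ± 0.04 (limma adjusted p = 0.0886), and within batches 1, 2 and 3 it was -0.14, -0.09 and -0.05. With batch as a block, Efemp2 passed (limma adjusted p = 0.0421), as it did after rescaling to TPM (0.0216), under quantile normalization (0.0499) and without knockdown library 3 (0.0121). Its exons overlap those of Mus81 on the opposite strand, and reads of the 2 genes cannot be told apart without strand. Mus81, a DNA repair nuclease gene, stood at 8.20 ± 0.208 FPKM in scrambled and 6.72 ± 0.102 FPKM in knockdown libraries, a fall that passed the test (limma adjusted p = 0.00124).

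Efemp1, the gene of fibulin-3 (chromosome 11, positions 28853204 to 28926743, plus strand), was too low to test. It measured 0.0893, 0.269 and 0.240 FPKM in scrambled and 0.0495, 0.253 and 0.203 FPKM in knockdown libraries 1, 2 and 3. These ranges overlapped, and in each group the library of batch 1 was the lowest.

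**Figure D2:**
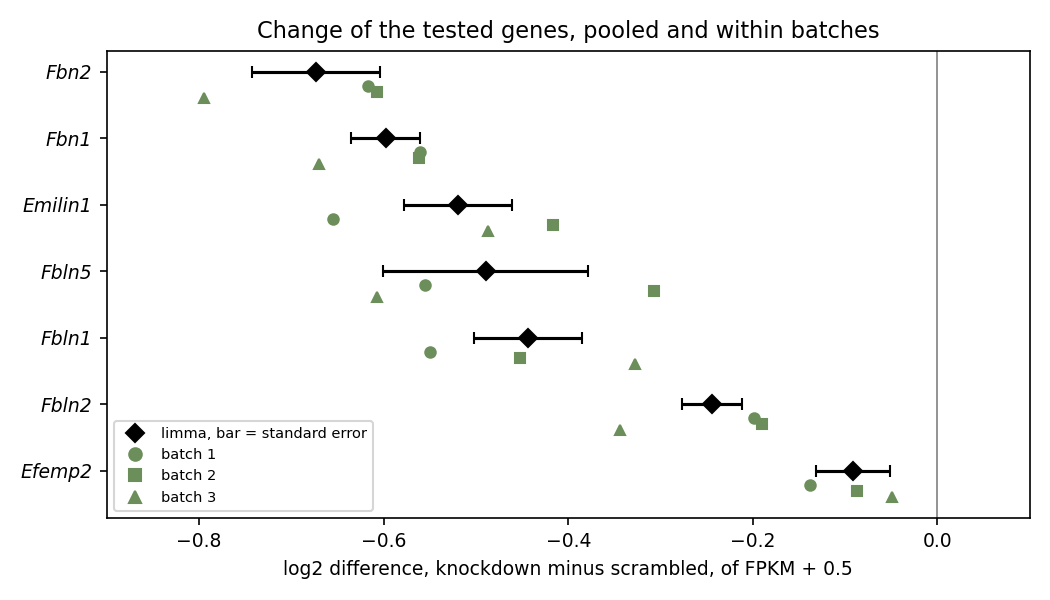
Log2 difference between knockdown and scrambled libraries for the 7 tested genes on the log2(FPKM + 0.5) scale. Black diamonds are limma estimates with standard errors and green markers are the differences within batches 1, 2 and 3. Every marker lies below 0, and the limma estimates run from Fbn2 at -0.67 to Efemp2 at -0.09.

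Emilin1 and Mfap4 encode proteins at the surface of the fibre. EMILIN-1 sits at the interface of elastin and microfibrils, and MFAP4 binds elastin and fibrillin. Emilin1 (chromosome 5, positions 30913402 to 30921277, plus strand, 8 exons) measured 43.3, 41.9 and 45.1 FPKM in scrambled libraries 1, 2 and 3. It measured 27.3, 31.3 and 32.0 FPKM in knockdown libraries 1, 2 and 3. All 3 knockdown values lay below the scrambled ones, with the lowest in batch 1. The mean was 30.4% lower (log2 fold change -0.52 ± 0.06, limma adjusted p = 0.000192).

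Mfap4 (chromosome 11, positions 61485431 to 61488900, plus strand, 6 exons) was near 0 in both groups. It measured 0.0676, 0.118 and 0.189 FPKM in scrambled libraries 1, 2 and 3, which is 5, 8 and 13 fragments. It measured 0.0300, 0.0170 and 0.0136 FPKM in knockdown libraries 1, 2 and 3, which is 2, 1 and 1 fragments. The groups did not overlap, but the knockdown values rest on 4 fragments in all against 26. Relative to library depth, the ratio of knockdown to scrambled was 0.163, with an exact 95% interval of 0.0413 to 0.469 that covers counting error only. Mfap4 was below the filter, and without the filter it had a log2 fold change of -0.26 (limma adjusted p = 0.0412). The pseudocount of 0.5 is larger than every Mfap4 value, so this log2 fold change is far smaller than the ratio implies. It rests on the same few fragments. Its exons overlap those of Mapk7, a kinase gene on the opposite strand, which stood at 11.2 ± 0.228 FPKM in scrambled and 11.3 ± 0.259 FPKM in knockdown libraries.

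Ratios between these transcripts within a library are the same for FPKM as deposited and for TPM, which scale a whole library by 1 factor, but not for quantile normalization. The 4 ratios given were chosen after their values were seen, so they are a description only. An exact test between the groups gave p = 0.1 for each of the 4, before and after adjustment. This is the smallest value that 3 against 3 libraries can give, so the test could not pass and no conclusion is drawn from it. The Efemp2 level was 1.23, 1.18 and 1.17 times that of Fbn1 in scrambled libraries 1, 2 and 3. It was 1.65, 1.65 and 1.81 times that of Fbn1 in knockdown libraries 1, 2 and 3. The ratio of Fbln2 to Fbn1 went from 6.74 ± 0.123 to 8.66 ± 0.228 (SD, n = 3 each). Fbn1 was 17.3 ± 0.381 times as high as Fbn2 in scrambled and 20.1 ± 0.512 times in knockdown libraries. On the log2(FPKM + 0.5) scale, the fall of Fbn1 was the smaller in the main comparison (-0.60, against -0.67 for Fbn2). Under quantile normalization it was the larger (-0.61, against -0.48 for Fbn2). The pseudocount shrinks the change of Fbn2 more than that of Fbn1, and no ratio was computed after quantile normalization. Emilin1 was 2.69 ± 0.0562 times as high as its paralog Emilin2 in scrambled and 1.75 ± 0.177 times in knockdown libraries. The groups were separated in these ratios of FPKM as deposited. No share over other gene pairs is given for comparison, so nothing is concluded from that separation. Fbn1 enters every ratio but that of Emilin1 to Emilin2, so the ratios are not separate observations.

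**Figure D3:**
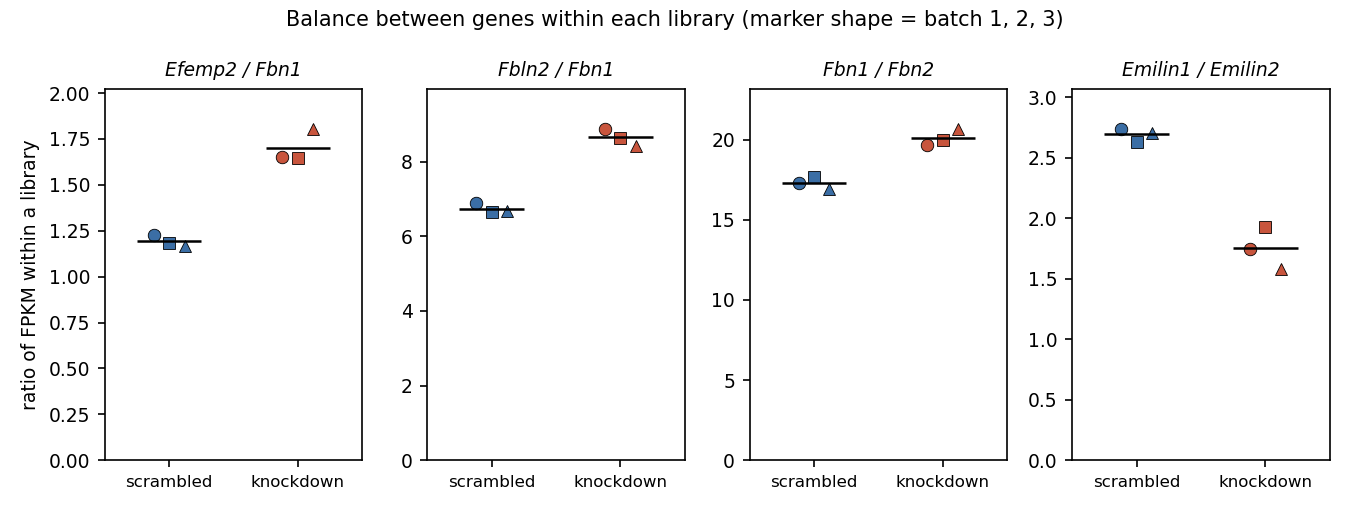
Ratio of FPKM between pairs of genes within each library, for scrambled (blue) and knockdown (red) libraries. Each axis starts at 0, marker shapes are batches and black lines are group means. Efemp2 over Fbn1, Fbln2 over Fbn1 and Fbn1 over Fbn2 (the last not under quantile normalization) are higher in all 3 knockdown libraries, and Emilin1 over Emilin2 is lower in all 3.

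A further 62 genes of elastic fibre assembly, sensing and breakdown were listed by role, and 41 of the 58 found in the table were tested. They too were listed with earlier results of these data known. Of the 41, 18 fell (43.9%, against 31.1% of all tested genes) and 11 rose (26.8%, against 19.8%). Their median log2 fold change was -0.13, against -0.05 over all tested genes. The counts by role below cover 5 to 7 genes each and stand beside the same 31.1% lower and 19.8% higher. The number that rose was 6 without scrambled library 1 or 3, 7 without scrambled library 2 or knockdown library 2, and 6 after rescaling to TPM. Among the partners of the microfibril, 4 of 6 fell and 2 rose, the latter 1 without scrambled library 1 or 3, after rescaling to TPM or without the filter. Mfap2, whose product MAGP-1 decorates microfibrils, fell by 0.77 on the log2 scale, with 30.0 ± 2.17 FPKM in scrambled and 17.6 ± 3.03 FPKM in knockdown libraries (limma adjusted p = 0.000483). Of the latent TGF-beta binding proteins, Ltbp4, which also aids elastin assembly, fell by 0.49 and Ltbp3 fell by 0.23 on the log2 scale. The call of Ltbp3 was lost under 1 of 16 alternatives (limma adjusted p = 0.0574). Ltbp2 rose from 4.87 ± 0.498 to 6.94 ± 1.36 FPKM (0.46, limma adjusted p = 0.0131), and its call was lost without the filter (0.0655).

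Among the crosslinking enzymes, 3 of 6 tested genes fell and 0 rose (1 under median centring). Loxl2 fell by 0.63 and Lox by 0.31 on the log2 scale. Loxl1, the lysyl oxidase most tied to elastic fibres, fell by 0.16 on the log2 scale, with 124.9 ± 0.888 FPKM in scrambled and 112.1 ± 3.86 FPKM in knockdown libraries (limma adjusted p = 0.00317). The copper transporter gene Atp7a, which supplies these enzymes, stood at -0.14 (limma adjusted p = 0.115), and its sign turned under quantile normalization (0.03). Of 5 tested ADAMTS, ADAMTS-like and emilin genes, 2 fell and 0 rose. Adamts10, whose product binds fibrillin-1, fell by 0.53, and Adamts6 fell by 0.23, a call lost under quantile normalization, where its log2 fold change was -0.07. Adamtsl5 stood at 0.12 (limma adjusted p = 0.0797) and rose under median centring (0.0144) and quantile normalization (0.00558). Emilin2 measured 16.1 ± 0.446 FPKM in scrambled and 17.4 ± 2.53 FPKM in knockdown libraries (log2 fold change 0.10, limma adjusted p = 0.371), and its sign turned without knockdown library 3.

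Of 6 tested genes for chaperones and processing, 2 fell and 1 rose. Glb1 and Neu1, of the cell-surface complex that carries tropoelastin, fell by 0.27 and 0.36 on the log2 scale, the second not under quantile normalization (limma adjusted p = 0.0634). As for Fbln1, the values do not tell apart the splice forms of Glb1. Ctsa, the third gene of that complex, stood at -0.16 (limma adjusted p = 0.0597) and passed with batch as a block (0.00566). Fkbp10, a chaperone of tropoelastin and collagen, rose by 0.10 (limma adjusted p = 0.0411), and 9 of 16 alternatives ended that call, among them the batch block (0.0611) and leaving out scrambled library 1 or 2 or knockdown library 1 or 2.

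Of 5 tested genes for receptors and the fibronectin scaffold, 2 fell and 2 rose, the latter 0 without scrambled library 3, without knockdown library 2, without the filter or under quantile normalization. Without scrambled library 1 or 2 or knockdown library 1, 1 rose. Fn1, the fibronectin on which microfibrils are laid down, fell by 0.35 on the log2 scale, with 534.5 ± 26.3 FPKM in scrambled and 419.2 ± 7.11 FPKM in knockdown libraries (limma adjusted p = 0.000130). The integrin gene Itgb5 fell by 0.33. Itga5 rose by 0.20 and Itgb1 by 0.09, and their calls were lost under 4 and 9 of 16 alternatives, quantile normalization among both.

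Of 7 genes for matrix breakdown and its inhibitors, 3 fell and 4 rose. The number that rose was 2 without any 1 of the scrambled libraries, after rescaling to TPM, under quantile normalization and without the limma trend, and the number that fell was 1 under median centring. The elastin-degrading cathepsin gene Ctsk fell by 0.64 on the log2 scale, with 12.1 ± 0.236 FPKM in scrambled and 7.60 ± 0.406 FPKM in knockdown libraries (limma adjusted p = 3.62e-05). The gelatinase gene Mmp2 fell by 0.14, a call lost under median centring (limma adjusted p = 0.0922). The metalloproteinase inhibitor genes Timp1 and Timp3 rose by 0.37 and 0.38. Of 6 TGF-beta ligand and activator genes, 2 fell and 2 rose. Tgfb1 fell by 0.27 and Bmp1, a proteinase that activates pro-lysyl oxidase, fell by 0.32. Thbs1, an activator of latent TGF-beta, rose by 0.41. Tll1, of the same proteinase family as Bmp1, measured 0.795 ± 0.103 FPKM in scrambled and 1.93 ± 0.700 FPKM in knockdown libraries. All its scrambled values were under 1 FPKM, so it passed the filter only through the group where it is high, and its call is not counted as support. It is 1 of the 11 genes counted as higher.

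**Figure D4:**
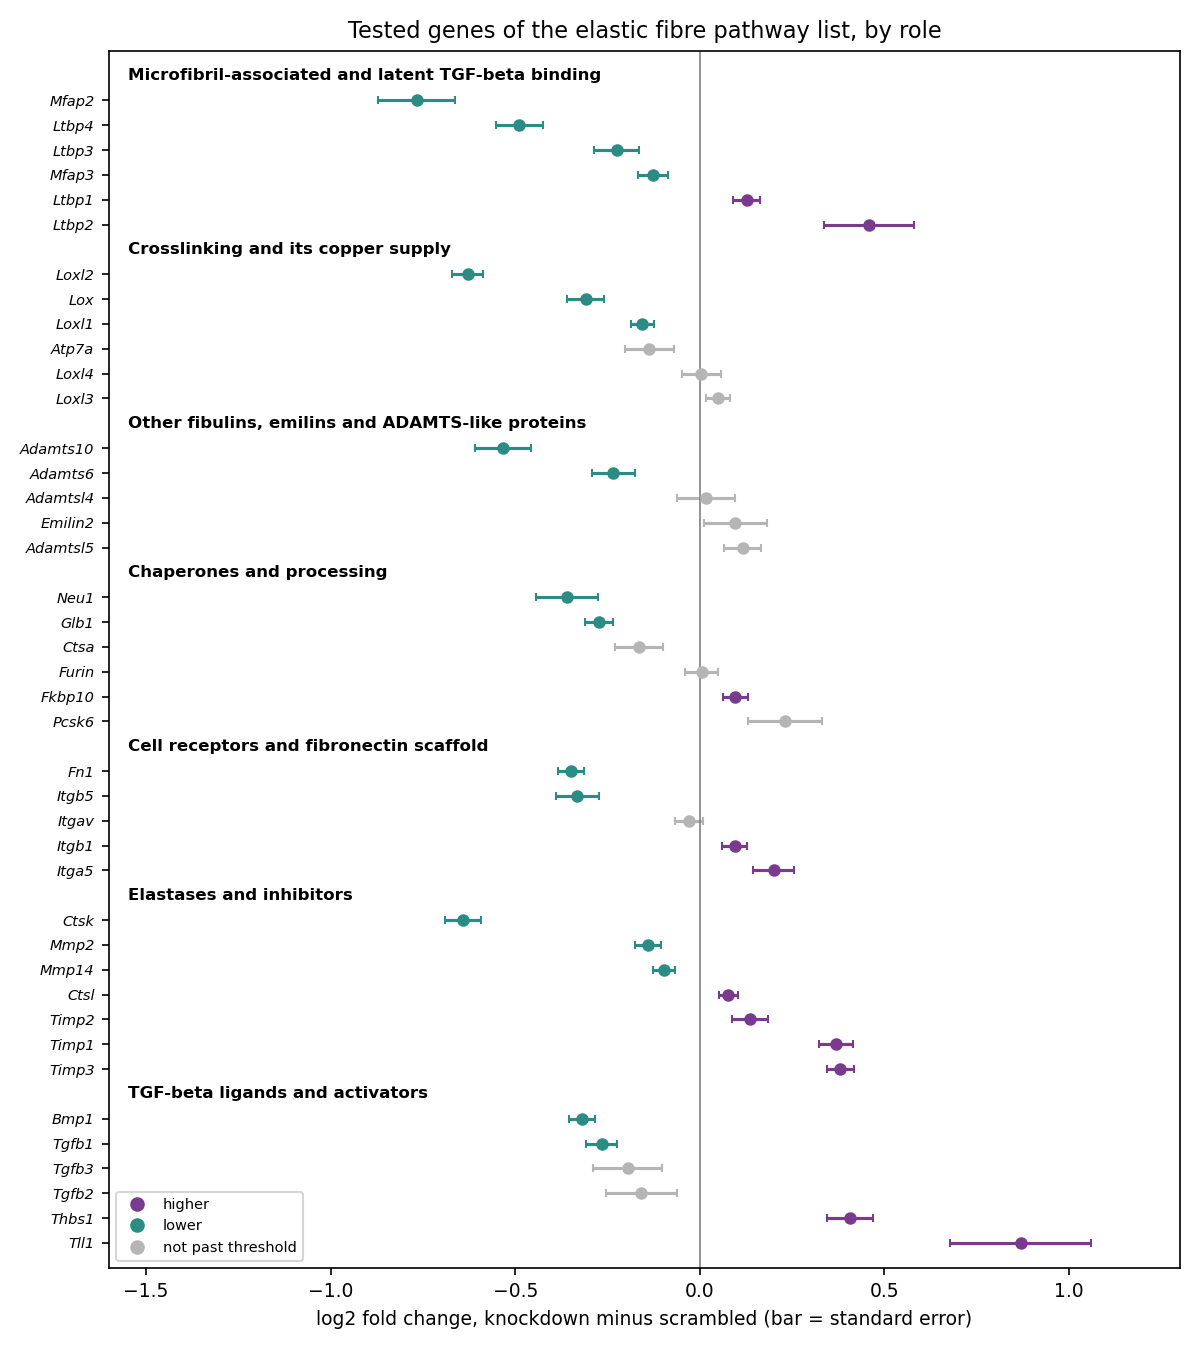
Log2 fold change with standard error of the 41 tested pathway genes, grouped by role. Green marks genes that were lower, purple genes that were higher and grey genes that did not pass the threshold. The 3 genes of crosslinking that passed all lie below 0, and Mfap2 is the lowest at -0.77. Tll1, at 0.87, passed the filter only through its knockdown libraries.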

How the data were processed

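The authors deposited 1 table of FPKM values, 1 per gene and library, and per the file headers no other scaling is recorded. The submitters' processing notes name GRCm38, mm10 and GRCm39 without a role, and neither the aligner nor the counter and its strand setting is given in the sources used here. Genes with at least 1 FPKM in at least 3 of the 6 libraries were tested (10311 genes). Log2(FPKM + 0.5) was compared between knockdown and scrambled libraries with limma 3.58.1 in R 4.3.3 (trended variance, two-sided), with Benjamini-Hochberg adjustment over all tested genes and a threshold of 0.05. The procedure was tested on simulated data.

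Whole fragments were recovered as the smallest whole numbers that fitted each gene's values within 0.002 (100% of 19877 genes), so they are understated where counts share a factor. Positions and exon numbers come from GENCODE M21 (GRCm38), and exon numbers are those of the longest coding transcript. The genes and lists were chosen with earlier results of these data known. Those named are the 10 genes, Ifit1 and, for each role, up to 4 tested genes of smallest p. The counts of a role cover all its tested genes.

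Per the labels, libraries of 1 number share a batch, which pairs them. Deviations from the group means correlated across genes by 0.086, 0.012 and 0.19 within batches 1, 2 and 3. Alternatives were other pseudocounts, filters, scalings and variance models, the batch block, and leaving out each library.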

Additional observations from a re-analysis of the deposited data

How the results depend on the processing

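Over 16 alternatives, the calls of Fbn1, Fbln1, Fbln2 and Emilin1 held in all 16, and those of Fbn2 and Fbln5 in the 15 that could include them, each with the same sign. The highest limma adjusted p was 0.00119 for Fbn1 and 0.0377 for Fbln5, both without the filter. The number of the 10 genes that fell was 6 to 7, apart from 4 of 5 with a mean of at least 5 FPKM, and 0 rose under each. With the replicate block 7 fell. On recovered fragments, limma-voom called 3343 genes lower and 2083 higher. Over all tested genes, the number lower was 2042 in place of 3209 with a mean of at least 5 FPKM, where fewer genes were tested. Pathway genes that rose were 6 in place of 11 without the filter, 6 after rescaling to TPM and 7 without the limma trend, and 6 to 10 without 1 library (6 without scrambled library 1 or 3, and 7 without scrambled library 2 or knockdown library 2). The cause was not tested. The sign turned for Atp7a under quantile normalization (0.031) and for Emilin2 without knockdown library 3 (-0.017, and up to 0.16 without knockdown library 1), and neither passed in the main comparison. The block changed the call of Efemp2, Ctsa and Fkbp10 and of no other named gene. Depth limits Eln, Mfap4 and Efemp1, which hold few fragments.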

Other observations

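Of the elastic fibre pathway genes, 41 of 58 were tested and the rest were below the filter, of which those named here were chosen after their values were seen. Mfap5, whose product MAGP-2 is the relative of MAGP-1 on microfibrils, measured 0.610 ± 0.104 FPKM in scrambled and 0.353 ± 0.236 FPKM in knockdown libraries (SD, n = 3 each), and the groups overlapped. All 3 knockdown libraries lay below the scrambled ones for 37.3% of all tested genes, a share not computed for genes below the filter. They did so for 4 of the 17 untested genes, those named next, and the groups overlapped for the rest. Without a share for genes this low, that count is a description only. Itgb3, an integrin subunit, measured 0.83 ± 0.13 and 0.547 ± 0.0801 FPKM, and Itga9, another, 0.209 ± 0.0701 and 0.0877 ± 0.0269 FPKM. Thsd4, the gene of the fibrillin-binding ADAMTSL6, measured 0.11 ± 0.016 and 0.078 ± 0.014 FPKM, and Hmcn2, the gene of a hemicentin, 0.118 ± 0.0126 and 0.0804 ± 0.0156 FPKM.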
